A study of Mus musculus with 24 samples.

Results

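The genes described here are 32 genes of the endoplasmic reticulum (ER) that encode its chaperones, folding enzymes, quality control and translocation proteins, together with sensors of the unfolded protein response. They were chosen by symbol, and all 32 were found among the 55414 gene identifiers of the count files. They were measured by RNA sequencing in LSK cells, the bone marrow fraction that lacks lineage markers and carries Sca-1 and Kit, in which hematopoietic stem cells and early progenitors are found. All libraries came from 21-day-old pups of C57BL/6J dams. The Western-diet females, Western-diet males, control females and control males had 6 libraries each. Western-diet dams ate TD.88137, given to make them obese, and control dams ate regular chow (2018SX), each for 4 weeks before mating and on through pregnancy and lactation. Every group had 2 libraries in each of the 3 batches that the labels give. Since the labels do not say which pups shared a dam, p-values cover only the variation among libraries, which may include littermates.

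Proteins that enter the secretory pathway are folded in the ER by the chaperone Hspa5 (BiP) and its partners, and disulfide isomerases join their cysteines. When unfolded proteins build up, the membrane sensors Ern1 (IRE1), Atf6 and PERK are released from Hspa5. Ern1 then splices the Xbp1 messenger RNA, Atf6 is cut to free a transcription factor, and PERK slows translation and raises Atf4. In blood, this response is best known from plasma cells, whose antibody secretion depends on Xbp1. The counts are per gene, so spliced and unspliced Xbp1 messages were summed.

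Factors of this response are known to bind the ER stress element, so the promoters of these genes were searched for it. The letters searched were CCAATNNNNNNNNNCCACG for the ER stress element (ERSE) and ATTGGNCCACG for the related ERSE-II, on both strands. The windows ran from 250 bases before to 50 after each RefSeq transcript start (build GRCm38.p6), and 27 of the 32 genes had one. ERSE was found in 9 of these 27 genes, which is 33.33%, or in 9 of their 28 windows. Of the 32851 windows of all genes, 39 held it, which is 0.119%, and these 9 are among them. Since the genes were chosen for their known part in this response, the comparison is a description and not a test. ERSE-II was found in 2 genes, Herpud1 and Dnajb11, against 0.0365% of all windows. The shorter pieces CCAAT and CCACG, which ERSE contains, were in 22 and 24 genes, against 37.4% and 32.8% of all windows. A match describes letters and does not show that a factor was bound. The matches below belong to the genes on which the later results turn, in capitals with 10 flanking bases on each side, read on the strand of the gene. Hsp90b1 holds 1 match in each orientation, and the reverse one reads from CGTGG to ATTGG.
Hspa5 (chr2:34772015-34772053, plus strand): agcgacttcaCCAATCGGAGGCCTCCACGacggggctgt
Hsp90b1, forward (chr10:86705628-86705666, minus strand): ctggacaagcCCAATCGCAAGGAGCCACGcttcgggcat
Hsp90b1, reverse (chr10:86705523-86705561, minus strand): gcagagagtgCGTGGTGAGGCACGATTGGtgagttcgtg
Pdia6 (chr12:17266481-17266519, plus strand): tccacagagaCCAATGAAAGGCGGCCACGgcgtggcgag
Canx (chr11:50325790-50325828, minus strand): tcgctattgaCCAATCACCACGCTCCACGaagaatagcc
Dnajc3 (chr14:118937817-118937855, plus strand): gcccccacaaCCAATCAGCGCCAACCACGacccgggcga
Herpud1, ERSE-II (chr8:94386367-94386397, plus strand): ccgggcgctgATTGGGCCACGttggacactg

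The other genes with an ERSE were Calr, Creld2, Syvn1 and Derl3. The Hspa5 match began 65 bases before the start, the Pdia6 match 98 bases and the Hsp90b1 matches 212 and 107 bases. The tables used held no window for Manf, Hyou1, Atf6, Derl1 and Sec61a1.

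**Figure D1:**
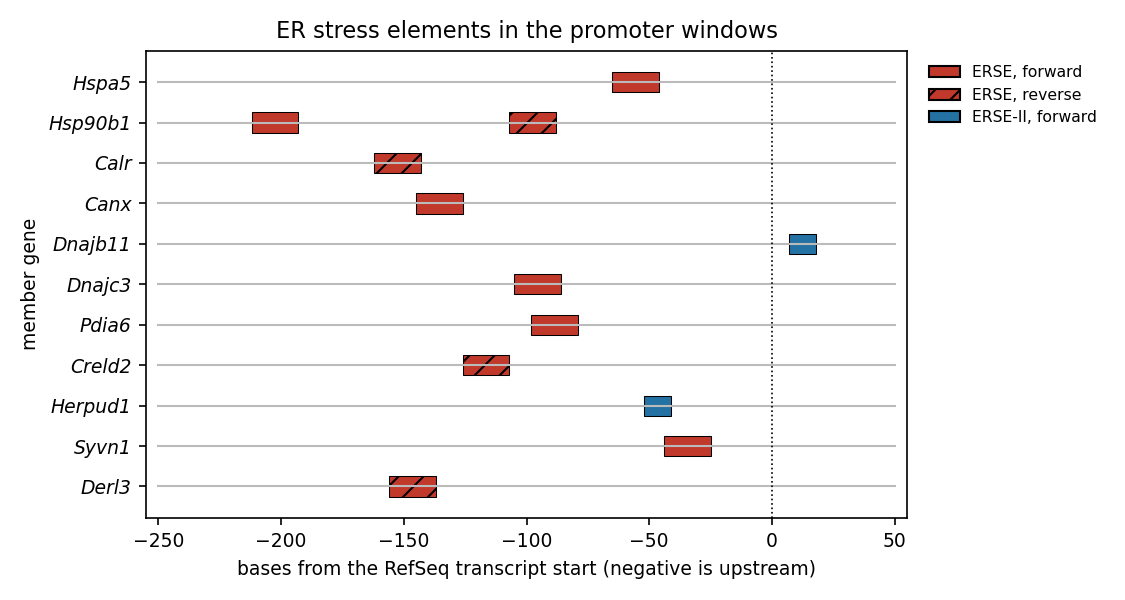
Position of ERSE (red, hatched where in reverse orientation) and ERSE-II (blue) in the promoter windows of the 11 genes that hold a match, in bases from the RefSeq transcript start (dotted line). All ERSE matches lie upstream of the start, and the ERSE-II of Dnajb11 lies after it.

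Libraries held 38057263 to 51581968 counts in genes, and the 32 genes took 0.967 to 1.392% of them. All 32 passed the filter on low counts, with 19616 genes tested in all. Levels are given as CPM, the counts of a gene relative to the library size corrected by TMM. On the first principal component of all genes (17.53% of the variance), control females 5 and 6 of batch 3 were far from the rest, at -90.95 and -72.42, where the other 22 lay between -29.35 and 41.85. Of the markers that define LSK cells, Kit averaged 536 CPM over all libraries and Ly6a, which encodes Sca-1, averaged 14.1 CPM, while Cd34, found on part of these cells, averaged 591 CPM. No marker of the 7 cell type lists was at 0 in every library of a group. The levels of other cell types are given beside the results they touch.

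The ER genes were expressed over a wide range. Per kilobase of exon, Hspa5 stood highest at 490 CPM per kilobase, ahead of the disulfide isomerase Pdia3 at 349, the lectin chaperones Canx at 289 and Calr at 248, and Pdia6 at 202. The sensors stood low, with Atf6 at 4.09 and Ern1 at 3.39 CPM per kilobase. Derl3, which is known from secretory cells, was lowest at 0.633. Its near relatives Derl1 and Derl2, which like it carry misfolded proteins out of the ER, stood at 41.2 and 14.4. These lengths come from an annotation of an older build than the counts.

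Genes also differed in how far libraries of one group and batch lay apart. Canx was among the steadiest, with a residual SD of 0.16 on the log2 scale and a lowest and highest library of 1085 and 1669 CPM. Sel1l, the adaptor of the Syvn1 ubiquitin ligase, had 0.18 and Derl2 0.19. Xbp1 varied most, with a residual SD of 0.76, more than 92.2% of all genes tested. Its lowest and highest libraries had 39.4 and 250.8 CPM, a 6.37-fold range. Next came Pdia5, another disulfide isomerase, at 0.63 and Hyou1, a large chaperone that helps Hspa5 release its nucleotide, at 0.62.

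In female pups, Hsp90b1 and Pdia6 were higher after maternal Western diet. Hsp90b1 (GRP94, the ER member of the Hsp90 family, ENSMUSG00000020048, chromosome 10) rose 1.49-fold, and Pdia6 (a disulfide isomerase that works with Hspa5, ENSMUSG00000020571, chromosome 12) rose 1.46-fold. They were 2 of 32 genes called higher and none was called lower at an adjusted p under 0.05 in edgeR's quasi-likelihood test, against 2.2% called higher, 3.22% called lower and 5.42% called either way of all genes tested. That background depended on the control females of batch 3: 1064 genes were called either way in all, 504 without control 6, 535 without control 5 and 154 without both. At an unadjusted p under 0.05 there were 13 of the 32 ER genes, against 4183 of 19616 genes tested (21.3%). The log2 fold change was above 0 for 25 of the 32, against 10507 of 19616 genes tested, with a median of 0.19 against 0.03 over all genes tested. This shift was unequal between batches, as the median difference of the 32 was 0.013, 0.355 and 0.15 within batches 1, 2 and 3. Only 8 of the 32 kept the same sign in all 3 batches.

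Hsp90b1 had 352, 519 and 731 CPM in the lowest, median and highest Western-diet female, against 327, 344 and 415 CPM in control females. The means were 543 ± 153 and 358 ± 31.98 CPM (SD, n = 6 each), and the log2 fold change was 0.58 ± 0.14 (SE; adjusted p = 0.017, edgeR). The groups overlapped, and 5 of 6 Western-diet libraries lay above the control mean. Pdia6 had 644, 841 and 1168 CPM in Western-diet females, against 519, 595 and 679.8 CPM in control females. Its means were 874 ± 197 and 594 ± 65.4 CPM (SD, n = 6 each), and its log2 fold change was 0.55 ± 0.13 (SE; adjusted p = 0.0149, edgeR). All 6 Western-diet libraries lay above the control mean, though the groups overlapped.

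The difference was unequal between batches. For Hsp90b1 the log2 difference between diets was 0.0071 in batch 1, 0.57 in batch 2 and 1.09 in batch 3, and for Pdia6 it was 0.083, 0.47 and 1.05. Without batch 3 neither gene was called, at log2 fold changes of 0.31 (adjusted p = 0.41) for Hsp90b1 and 0.29 (adjusted p = 0.39, edgeR) for Pdia6. Without batch 2 neither was called, though the log2 fold changes were 0.57 (adjusted p = 0.149) and 0.58 (adjusted p = 0.116, edgeR), about as large as with all batches. Without female control libraries 5 and 6, the pair that stood apart, Hsp90b1 had 0.42 (adjusted p = 0.281) and Pdia6 0.38 (adjusted p = 0.277, edgeR), again below the call. Leaving out control 5 alone gave 0.53 (adjusted p = 0.0593) for Hsp90b1 and 0.49 (adjusted p = 0.0552, edgeR) for Pdia6. Leaving out control 6 alone gave 0.52 (adjusted p = 0.0647) and 0.49 (adjusted p = 0.0587, edgeR). Without Western-diet female 5, Hsp90b1 had 0.51 (adjusted p = 0.0542) and Pdia6 was still called at 0.52 (adjusted p = 0.0409, edgeR). Leaving out any of these 3 libraries alone thus moved the log2 fold changes by less than their SE.

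Markers of other cells moved in the same comparison. The summed level of 13 erythroid markers was 2572 to 7360.5 CPM in Western-diet females against 7453 to 13450.0 CPM in control females, with no overlap, and 9 of the 13 fell, among them Car1, Car2, Gata1, Klf1 and Epor. Car2 was the most abundant of them at 3369 CPM. Of 14 plasma and B cell markers tested, 3 rose, which were Jchain (log2 fold change 1.502), Igkc (1.64) and Cd79b (0.50), and the summed level of the list was 535 to 2277 CPM against 395 to 1213 CPM. Ighm was its most abundant gene at 625 CPM. Tnfrsf17 and Prdm1, which are known from plasma cells, averaged 0.160 and 0.385 CPM over all libraries. Sdc1 and Mzb1 of the same list averaged 21.8 and 1.89 CPM. The 14 granulocyte and monocyte markers, led by Mpo at 3264 CPM, summed to 4278 to 13225 CPM in Western-diet females against 2657 to 6147 CPM in control females, and none was called. Of 12 LSK markers, Mecom (0.55) and Meis1 (0.52) rose. No T or NK cell marker (most abundant Il7r, 17.4 CPM), mast cell or basophil marker (Prss34, 330.3 CPM) or stromal or endothelial marker (Col1a1, 346 CPM) was called in females. The part of these markers in the ER gene values was not tested, and in bulk libraries fewer cells of a type and less RNA per cell cannot be told apart.

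**Figure D2:**
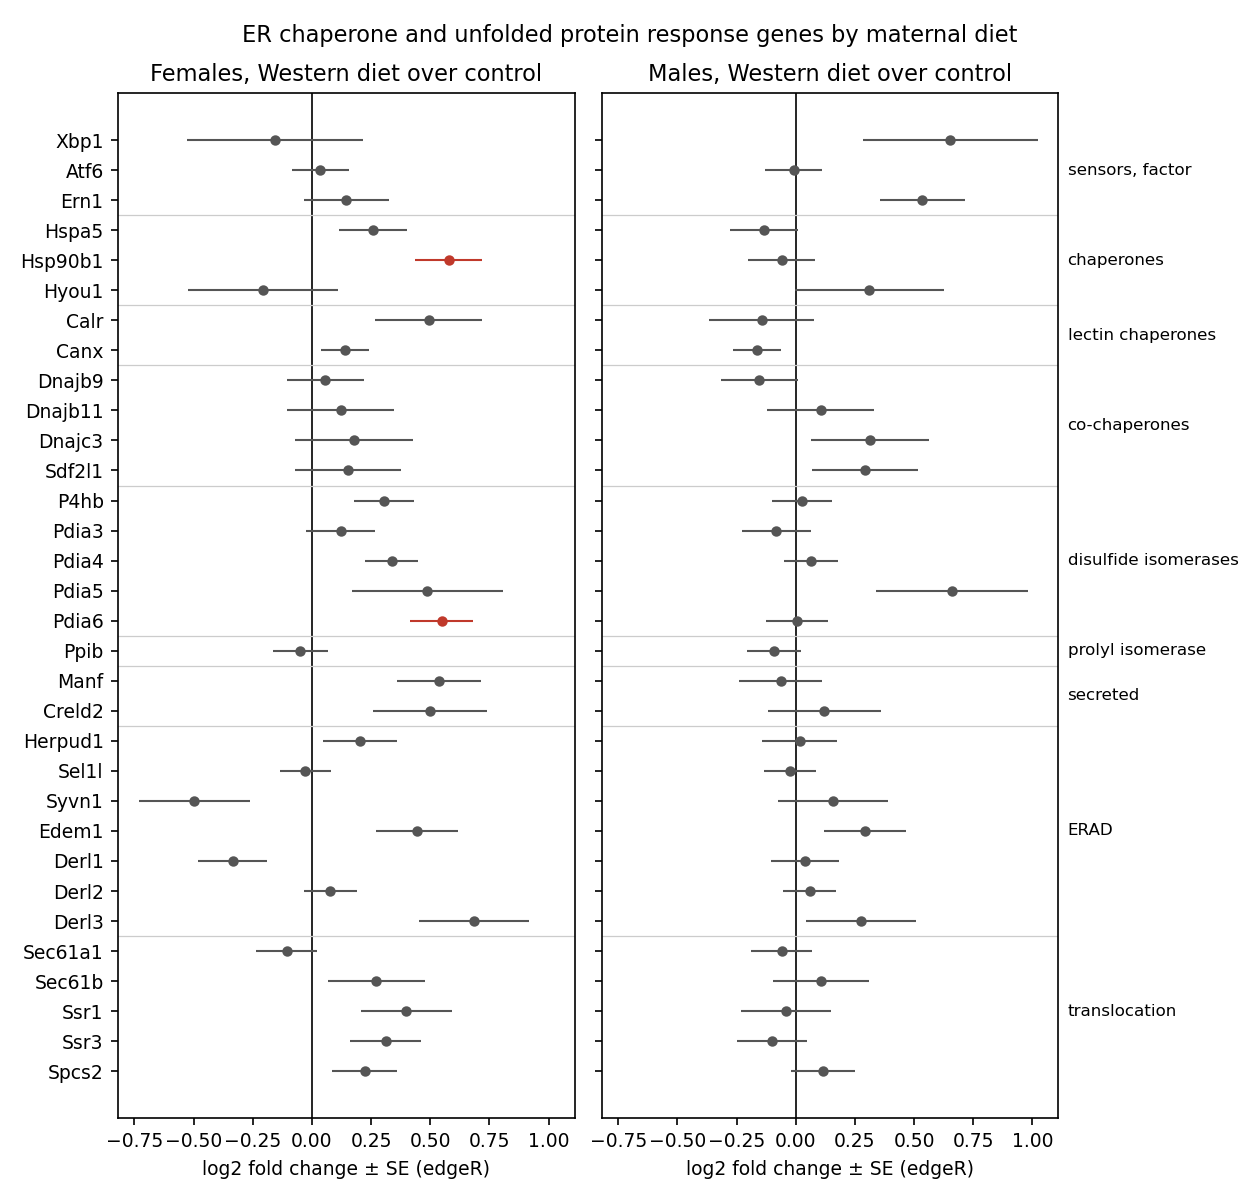
Log2 fold change of each ER gene, Western diet over control, in females (left) and males (right), with the SE from edgeR as bars and genes grouped by role. Hsp90b1 and Pdia6 in females are red, as called at an adjusted p under 0.05, and all other points are grey.

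The remaining chaperones of females did not pass the test. Hspa5 had 1932, 2208 and 3272 CPM in the lowest, median and highest Western-diet female, against 1636, 1822 and 2704 CPM in control females, with a log2 fold change of 0.26 ± 0.14 (SE). Its groups overlapped, with the highest library of each far from the rest. Calr, the soluble lectin chaperone of glycoproteins, had 435, 779 and 1335 CPM in Western-diet females, against 370.3, 559 and 736 CPM in control females. Its log2 fold change was 0.49 ± 0.23 (SE; adjusted p = 0.207, edgeR), with differences of -0.04, 0.004 and 1.44 within batches 1, 2 and 3. Canx, the membrane-bound relative of Calr, had a log2 fold change of 0.14. Hyou1 had -0.21.

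Among the folding enzymes, all 5 disulfide isomerases had positive log2 fold changes in females, though Pdia6 alone was called: P4hb had 0.30, Pdia3 0.12, Pdia4 0.34 (adjusted p = 0.0834, edgeR) and Pdia5 0.49. Control females were tight for Pdia4, at 139 ± 6.04 CPM, against 176 ± 36.3 CPM in Western-diet females (SD, n = 6 each). The prolyl isomerase Ppib had -0.05. The Hspa5 co-chaperones Dnajb9, Dnajb11, Dnajc3 and Sdf2l1 had 0.06 to 0.18. Dnajb9 (ERdj4) had 38.8, 71.4 and 151 CPM in Western-diet females, against 46.7, 71.6 and 119.8 CPM in control females, and Sdf2l1 had 97.8, 151 and 257 CPM against 118, 153 and 171 CPM. For both genes the medians were close and the Western-diet libraries spread more widely.

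The secreted ER proteins Manf, which also acts as a survival factor, and Creld2 had log2 fold changes of 0.54 ± 0.18 (SE; adjusted p = 0.0739, edgeR) and 0.50 ± 0.24 (SE; adjusted p = 0.233) in females. Manf averaged 199 ± 65.5 CPM in Western-diet females against 134 ± 18.8 CPM in control females (SD, n = 6 each), and its within-batch differences were -0.22, 0.71 and 1.04. The sensors and Xbp1 gave small values over all batches: Atf6 0.03, Ern1 0.15 and Xbp1 -0.16. These averaged over batches of opposite sign. Within batches 1, 2 and 3 the differences were 0.099, 0.62 and -1.53 for Xbp1 and 0.28, 0.48 and -0.32 for Ern1. For Atf6 they were -0.13, -0.19 and 0.39. Atf6 had 28.8, 36.7 and 41.1 CPM in Western-diet females, against 26.9, 37.3 and 39.99 CPM in control females. Ern1 had 15.7, 28.7 and 36.8 CPM against 17.6, 22.9 and 33.7 CPM. Xbp1 had 39.4, 176 and 241 CPM against 90.5, 203 and 229 CPM. In all 3 genes the control range lay largely inside the Western-diet range.

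The genes of ER-associated degradation (ERAD), which return misfolded proteins to the cytosol for destruction, pointed both ways in females. Edem1, which recognises trimmed mannose chains, had 0.45 (adjusted p = 0.134), with all 6 Western-diet libraries above the control mean. Derl3 had 0.68 (adjusted p = 0.084, edgeR) at a level of 1.61 ± 0.606 CPM in Western-diet females and 1.00 ± 0.213 CPM in control females (SD, n = 6 each). Syvn1, the ubiquitin ligase HRD1, had -0.50 (adjusted p = 0.222) and Derl1 -0.33 (adjusted p = 0.183, edgeR), and for each all 6 Western-diet libraries lay below the control mean. Both differences were largest in batch 3. Within batches 1, 2 and 3 they were 0.08, -0.37 and -1.47 for Syvn1 and -0.02, -0.16 and -0.93 for Derl1. Herpud1, a stress-induced ERAD scaffold, had 206, 279 and 418 CPM in Western-diet females, against 194, 229.8 and 391.6 CPM in control females, a log2 fold change of 0.20. Sel1l had -0.03 and Derl2 0.08. Of the translocation genes, the channel subunits Sec61a1 and Sec61b had -0.11 and 0.27, the translocon-associated Ssr1 and Ssr3 had 0.40 and 0.31, and the signal peptidase subunit Spcs2 had 0.22. None of these was called.

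**Figure D3:**
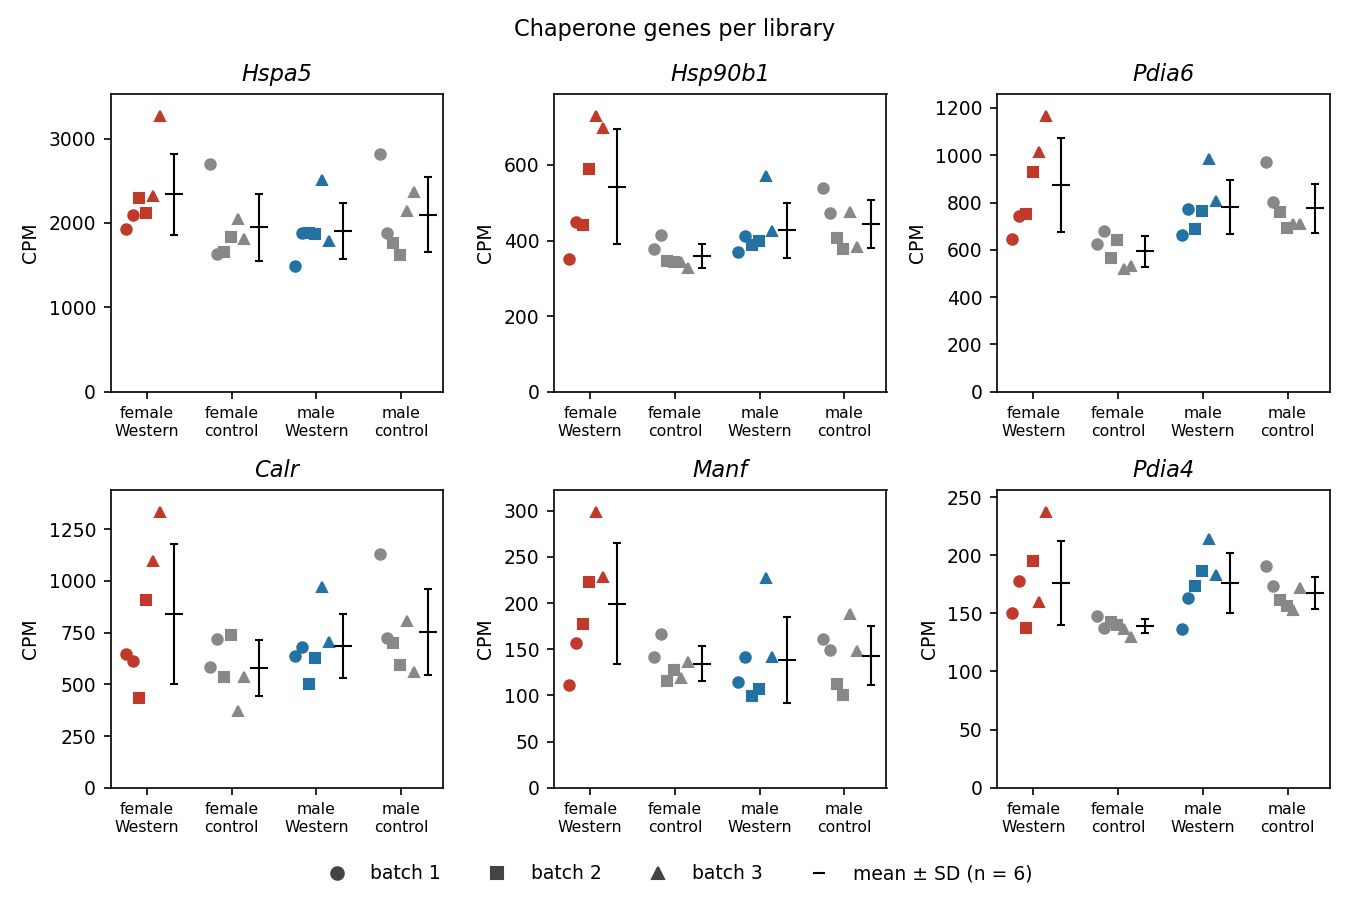
CPM of 6 ER genes in every library, by sex and maternal diet, with batches as symbols and the mean ± SD (n = 6) beside each group. Western-diet females of batch 3 hold the highest Hsp90b1 (731 CPM) and Pdia6 (1168 CPM) of all libraries, and the control females lie within 327 to 415 CPM and 519 to 679.8 CPM.

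In male pups none of the 32 genes was called, by edgeR, by DESeq2 or by limma-voom, against 0.0102% of all genes tested (edgeR). At an unadjusted p under 0.05 there was 1 of 32, Ern1, against 1657 of 19616 genes tested (8.45%). With no filter on low counts edgeR called 2 higher, Xbp1 and Pdia5, and the calls over all genes were then 380 in number, against 2 with the filter. The median log2 fold change of the 32 was 0.03, against 0.02 over all genes. Ern1 had 29.9, 32.4 and 43.5 CPM in the lowest, median and highest Western-diet male, against 15.002, 24.04 and 33.3 CPM in control males, with a log2 fold change of 0.54 ± 0.18 (SE; adjusted p = 0.374, edgeR). Its target Xbp1 had 169.9, 195 and 251 CPM against 49.0, 144 and 218 CPM, with 0.65 ± 0.37 (SE; adjusted p = 0.659). For both genes the groups overlapped, but all 6 Western-diet males lay above the control mean, and the within-batch log2 differences were positive in each batch (0.48, 0.31 and 0.86 for Ern1; 0.99, 0.39 and 1.18 for Xbp1). In males 8 of the 32 genes kept the same sign in all 3 batches. Control males 1 and 5, of batches 1 and 3, were among the libraries with the lowest Xbp1. Pdia5 had 0.66 ± 0.32 (SE; adjusted p = 0.592, edgeR).

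The genes called in females lay close together in males. Hsp90b1 had 369, 407 and 570.5 CPM in Western-diet males, against 378, 439.5 and 539 CPM in control males, a log2 fold change of -0.06. Pdia6 had 664, 769 and 984 CPM against 693, 736 and 973 CPM, a log2 fold change of 0.0038. Hspa5 had 1494, 1878 and 2510.4 CPM against 1625, 2011 and 2814 CPM, and Calr 504, 658 and 969 CPM against 559, 713 and 1132 CPM, with log2 fold changes of -0.13 and -0.14. All 4 genes had groups that overlapped almost fully.

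The rest of the genes singled out by name behaved likewise in males. Dnajb9 had 59.1, 69.8 and 97.8 CPM in Western-diet males, against 71.1, 77.0 and 102 CPM in control males. Sdf2l1 had 115, 151 and 258 CPM against 75.9, 137 and 209 CPM. Atf6 had 35.3, 38.2 and 43.0 CPM against 30.5, 36.8 and 55.3 CPM. The groups of these genes overlapped, as did those of Herpud1, with 229.7, 262 and 283 CPM against 221, 239.8 and 321 CPM. Over all 32 genes the log2 fold changes in males ran from -0.16 (Canx) to 0.66 (Pdia5). Erythroid markers summed to 3758 to 6461 CPM in Western-diet males against 6812 to 12613 CPM in control males, with Car1 called lower, and their part in these values was not tested.

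The difference between the sexes was tested directly. The diet effect in males minus that in females was called for none of the 32 genes, and for 0% of all genes tested, by edgeR. At an unadjusted p under 0.05 there were 4 of 32 ER genes, against 1633 of 19616 genes tested (8.32%), and all 4 had negative values: Hsp90b1 (-0.64 ± 0.20, SE), Pdia6 (-0.54 ± 0.18), Manf (-0.60 ± 0.25) and Canx (-0.30 ± 0.14), with adjusted p of 0.589 for the first 3 and 0.596 for Canx (edgeR). DESeq2 and limma-voom called none either, and edgeR with no filter called Xbp1 higher and Hsp90b1 and Calr lower. The call in females and its absence in males are thus not shown to differ. Averaged over the sexes no ER gene was called, against 5.7% of all genes (2.19% higher, 3.51% lower), and 7 of 32 had an unadjusted p under 0.05, against 20.6% of all genes. Nearest were Edem1 at 0.37 ± 0.12 (SE; adjusted p = 0.0757) and Pdia6 at 0.28 ± 0.09 (SE; adjusted p = 0.0819, edgeR), and limma-voom called both along with Derl3.

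Males and females of one diet were also compared. In control pups no ER gene was called, against 0.112% of all genes (0.0867% higher in males, 0.0255% lower), and 4 of 32 had an unadjusted p under 0.05, against 13.2% of all genes. Pdia6 averaged 775 ± 105 CPM in control males and 594 ± 65.4 CPM in control females (SD, n = 6 each), a log2 fold change of 0.38 ± 0.13 (SE; adjusted p = 0.219, edgeR), and Pdia4 averaged 168 ± 13.8 and 139 ± 6.04 CPM, with 0.27 ± 0.11 (SE; adjusted p = 0.311). Control males lay above every control female for both genes, though neither was called. The share of all genes without overlap was not counted. Hsp90b1 had 0.30 and Derl1 -0.35. These sex comparisons share the control females with the diet comparison above. In Western-diet pups no ER gene was called, against 0.0816% of all genes (0.0561% higher in males, 0.0255% lower), and 2 of 32 had an unadjusted p under 0.05, against 6.75% of all genes. These were Manf at -0.54 and Hsp90b1 at -0.34 in males over females.

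Few of these genes were called between batches. With group held fixed, 2 of 32 were called in edgeR's test, against 24.2% of all genes. That test takes a batch shift shared by all groups, and does not measure diet differences that vary between batches. Dnajb9 averaged 104 ± 23.1, 63.7 ± 13.0 and 67.3 ± 9.55 CPM in batches 1, 2 and 3 (SD, 8 libraries each; adjusted p = 0.00113, edgeR), so batch 1 stood above both others. Manf averaged 143 ± 20.5, 133 ± 44.1 and 186 ± 61.7 CPM (adjusted p = 0.0444, edgeR), highest in batch 3.

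**Figure D4:**
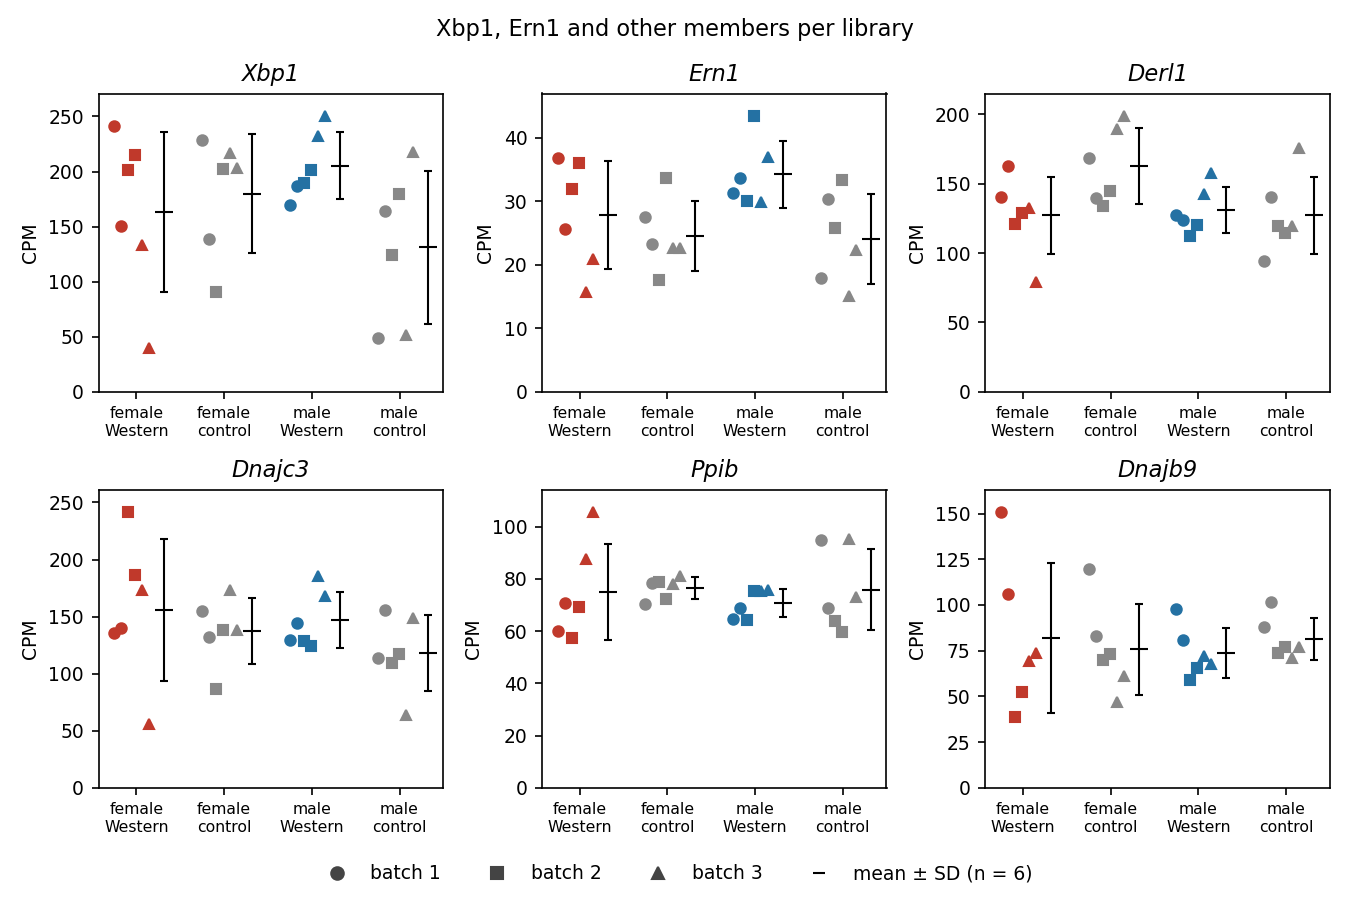
CPM of Xbp1, Ern1, Derl1, Dnajc3, Ppib and Dnajb9 in every library, by sex and maternal diet, with batches as symbols and the mean ± SD (n = 6) beside each group. Western-diet female 6 has the lowest Xbp1 (39.4 CPM) and the highest Ppib (106 CPM), and the 6 Western-diet males all lie above the mean Xbp1 and Ern1 of control males.

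Libraries also varied within groups, and the ER genes then moved in partly separate sets. Hsp90b1 and Pdia6 had r = 0.92 with each other once group and batch means were removed, described without a test. The 2 calls in females are thus not independent of each other. After group and batch means were removed, 6 of 31 genes correlated with Hspa5 over the 24 libraries (permutation test of Pearson's r, 100000 resamples, two-sided, adjusted over 31 relations), all positively. Herpud1 was the closest (r = 0.66, permutation p = 0.00076, adjusted 0.0092; rho = 0.72, p = 0.00012, adjusted 0.00372). The others were Pdia4 (r = 0.63, rho = 0.59), Sel1l (0.62 and 0.60), Sec61a1 (0.61 and 0.60), Canx (0.58 and 0.55) and Pdia6 (0.58 and 0.49), with raw permutation p of 0.00071 to 0.00314 for r. The adjusted p of r was at most 0.0162 in all 6, and that of rho was at most 0.0383 except for Pdia6 (0.0769). Without the 2 libraries farthest from the median of Hspa5, control female 1 and control male 1, all 6 stayed positive, at 0.40 (Canx) or more. The permutation moved all 24 libraries freely although group and batch means had been removed. When these means were removed again in each permutation, an alternative chosen after the data were seen, 4 of the 6 passed at an adjusted p of 0.0412, while Canx and Pdia6 did not (adjusted permutation p = 0.0528 each). Within batches 1 and 3 all 6 were positive, and in batch 2 Pdia4 (-0.50) and Sec61a1 (-0.33) were negative. Only ER genes were set against Hspa5. The share of all genes tested that correlate with it as closely was not counted, so the relations are not shown to be particular to ER genes.

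Xbp1 gave a different set, examined after its wide range had been seen. Of 31 relations 14 passed, 8 positive and 6 negative (permutation test of r, 100000 resamples, two-sided, adjusted over 31 relations). The positive ones were the ERAD gene Derl1 (r = 0.88), the co-chaperones Dnajc3 (0.81), Dnajb11 (0.77) and Sdf2l1 (0.64), Pdia5 (0.80), the sensor Ern1 (0.72), Hyou1 (0.58) and Creld2 (0.57). Ppib was the strongest negative one (r = -0.87), followed by Ssr3 (-0.59), Atf6 (-0.55), Calr (-0.55), Hsp90b1 (-0.49) and Sec61b (-0.48). For Derl1, Dnajc3 and Ppib the permutation p was 1e-05, the smallest that 100000 resamples can give (adjusted 0.000103), and the largest adjusted p of the 14 was 0.0374, for Sec61b (raw p = 0.0169). By rho, Derl1 had 0.83 (permutation p = 1e-05, adjusted 0.000155), Dnajc3 0.72 (p = 1e-04, adjusted 0.00062) and Ppib -0.76 (p = 3e-05, adjusted 0.00031), while Hsp90b1 (adjusted 0.0527), Creld2 (0.106) and Atf6 (0.101) did not pass. When the group and batch means were removed again in each permutation, 12 of the 14 passed, 8 positive and 4 negative, while Hsp90b1 (adjusted permutation p = 0.0717) and Sec61b (0.0809) did not.

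Western-diet female 6, control male 1 and control male 5 had the lowest Xbp1, at 39.4, 49.0 and 51.9 CPM. Without Western-diet female 6 and control male 1, the 2 farthest from the median, all 14 genes kept their sign, at 0.76 for Derl1, 0.79 for Dnajc3 and -0.78 for Ppib, and at no less than 0.30 in size. Without all 3, the 14 again kept their sign, but Sdf2l1 had 0.12, Calr -0.23, Creld2 0.23 and Derl1 0.50, while Ern1 had 0.89. Much of the strength for those genes rested on these libraries. All 14 kept their sign within batches 1 and 3, and 11 of 14 within batch 2, where Calr, Sec61b and Ssr3 were positive. Each pair of values comes from the same library and so shares its scaling. The share of all genes tested that correlate as closely with Xbp1 was not counted either. The set is thus not shown to be particular to ER genes.

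Markers of other cells were set beside Xbp1 in the same way. The summed granulocyte and monocyte markers correlated with it at r = -0.59 (permutation p = 0.00265, adjusted 0.0185 over 7 lists) but at rho = -0.41 (p = 0.0478, adjusted 0.167), and at -0.22 without the 2 farthest libraries. With group and batch means removed again in each permutation this list did not pass (adjusted permutation p = 0.0582). Within batches 1, 2 and 3 this r was -0.81, 0.36 and -0.67. Western-diet female 6 had the highest such sum of all libraries, 13225 CPM, and control male 1 had 8829 CPM, the highest of the control males. The other 6 lists, plasma and B cells (r = -0.24) among them, did not pass. Whether these cells had a part in the Xbp1 values was not tested.

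**Figure D5:**
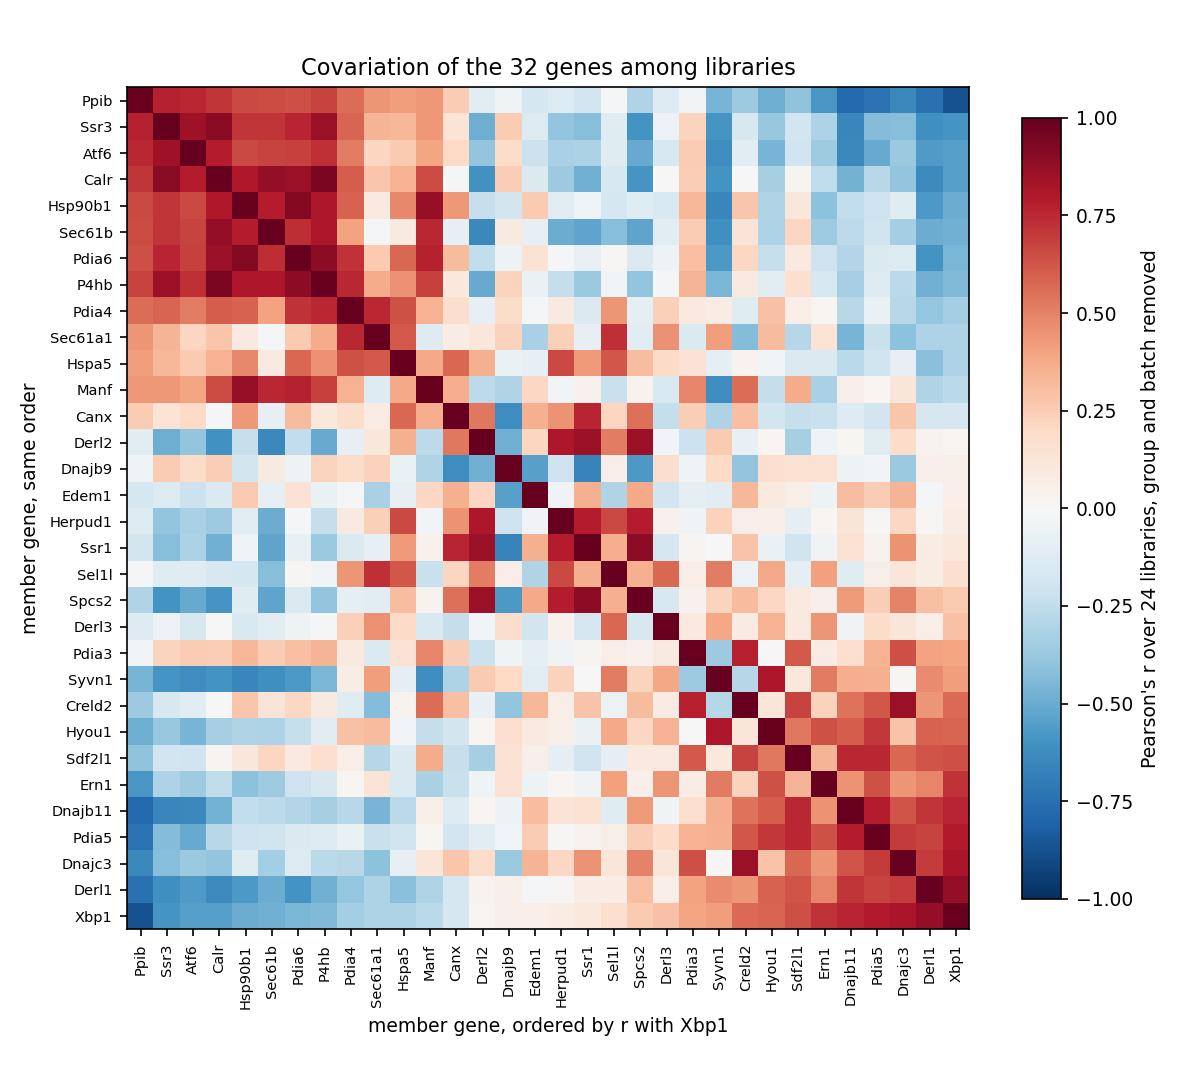
Pearson's r between the 32 ER genes over the 24 libraries after group and batch means were removed, with genes on both axes ordered by r with Xbp1, red for positive and blue for negative. Derl1, Dnajc3, Pdia5 and Dnajb11 (0.77 to 0.88 with Xbp1) lie in the lower right corner, and Ppib (-0.87) at the opposite end beside Ssr3, Atf6 and Calr.

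Other genes of the same pathways were counted from 6 lists. Of all genes tested in females, 2.2% were called higher and 3.22% lower. Those calls fell from 1064 to 154 without female control libraries 5 and 6. Whether the list genes named below, or the marker genes above, stay called without that pair was not examined. In females, of 27 further ER folding enzymes and co-chaperones 2 rose and 1 fell. Txndc12, a thioredoxin-like ER protein, had 69.5 ± 8.66 CPM in Western-diet females and 51.3 ± 6.96 CPM in control females. Ppic, a prolyl isomerase, had 39.9 ± 12.3 and 20.6 ± 8.25 CPM, and the disulfide isomerase Pdia2 fell to 13.4 ± 5.58 CPM, against 42.2 ± 23.7 CPM in control females (SD, n = 6 each). Their log2 fold changes were 0.45, 0.98 and -1.58 (adjusted p = 0.00972, 0.0117 and 0.000322, edgeR). The median of the list was 0.04.

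Of 18 tested genes of N-glycosylation and glycan quality control, Ostc, a subunit of the oligosaccharyltransferase, and Edem2, a mannosidase-like ERAD gene, rose (log2 fold changes 0.38 and 0.36). Of 19 further translocation genes Sec63, a partner of the Sec61 channel, rose (0.61), and none fell. Of 19 further ERAD genes the ubiquitin-conjugating enzyme gene Ube2j1 (-0.56), Aup1 (-0.32), which recruits another such enzyme, and the ubiquitin ligase gene Rnf139 (-0.49) fell, and none rose. Of 14 tested sensors and factors 1 fell, Nfyc (-0.44), a subunit of the factor NF-Y that binds CCAAT. The adjusted p-values of these genes lay between 0.0154 and 0.0408 (edgeR), and the list medians were 0.03, 0.04, -0.11 and 0.05.

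Of 12 target genes of the PERK and Atf4 arm 3 fell in females and none rose: Asns, the asparagine synthetase gene, with 173 ± 69.0 CPM in Western-diet females and 331 ± 159 CPM in control females, Sesn2, a stress-induced regulator of growth signalling, with 15.3 ± 4.53 and 30.6 ± 6.92 CPM, and Ppp1r15a, which restores translation after PERK acts, with 328 ± 193 and 517 ± 219 CPM (SD, n = 6 each). Their log2 fold changes were -0.91, -0.98 and -0.73 (adjusted p = 0.000785, 0.00803 and 0.0208, edgeR), and the list median was 0.06. In males no gene of these 6 lists was called. Averaged over the sexes, Pdia2, Ube2j1, Aup1, Rnf139, Ppp1r15a and Asns were lower and Txndc12, Ppic and Edem2 higher.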

How the data were processed

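Libraries were made with a low-input polyA kit, which does not mark strand, from RNA of integrity above 8, per the labels' protocols. The authors deposited raw counts per gene, 1 file per library. FastQC, cutadapt, STAR, HTSeq, DESeq2 and GRCm39 are named in the submitters' processing notes, while versions, annotation release and strand setting were not given in the sources used here, so reads of overlapping antisense genes cannot be told apart. HTSeq's closing lines (31.0 to 39.3% of each file) were left out. Symbols (52081 of 55414 identifiers matched), chromosomes and exonic lengths came from GENCODE M21, and promoter windows from RefSeq, both of an older build.

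Counts were filtered (filterByExpr), scaled (TMM factors 0.932 to 1.053) and fitted in edgeR 4.0.16 under R 4.3.3 with a robust quasi-likelihood model of group and batch over all 24 libraries (common biological coefficient of variation 0.2615). P-values are two-sided, were adjusted by Benjamini-Hochberg over 19616 genes in each of 6 comparisons, and were called under 0.05. The SE is the log2 fold change divided by the root of F. No library repeats another of its group, as the chi-square per degree of freedom between any 2 libraries of a group was 19.1 or more. Libraries of different groups were not compared in this way. Correlations used log2 CPM (prior count 2) after removal of group and batch means.

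The 32 genes, the lists and the tests were chosen with earlier results of these data known, and the correlations with Xbp1, with its alternatives, after its values were seen. Each ER gene is given, with lowest, median and highest CPM for the called genes and for Hspa5, Calr, Xbp1, Atf6, Ern1, Dnajb9, Herpud1 and Sdf2l1. Up to 3 called genes of each pathway list are named by smallest p, and of each marker list the most abundant and the called genes, in the diet comparisons within a sex, though not every gene the rule takes is reported here. Protein ends were not analysed here. Alternatives were RLE scaling, no filter, a stricter filter (CPM of 1 in 6 libraries), DESeq2 1.42.0, limma-voom (limma 3.58.1) with quality weights, no batch term, a replicate block, the compared groups alone, and each batch, each library, or both female controls of batch 3 left out.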

Additional observations from a re-analysis of the deposited data

Results flagged for a closer look

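In groups of 6 libraries, the highest or lowest library of an ER gene was set against its neighbour with Dixon's criterion at 95%. Of 128 such groups (32 genes in 4 groups) 11 held a library that stood far from the others, spread over 8 libraries, and chance gives about 1 in 20. Among Western-diet females, Hspa5 reached 3272 CPM in library 6 (nearest other library 2323 CPM) and Ssr1 reached 2031 CPM in library 3 (nearest 946 CPM). Among Western-diet males, library 5 was highest for both Hsp90b1, at 570.5 CPM (nearest 425.6), and Manf, at 226.6 CPM (nearest 141.2). Among control females, library 5 was lowest for Atf6, at 26.92 CPM (nearest 36.17), and highest for Derl2, at 153.1 CPM (nearest 115.6). Library 3 of that group was lowest for Creld2, at 52.41 CPM (nearest 76.64), and for Pdia5, at 9.966 CPM (nearest 18.44). Library 1 of that group was highest for Herpud1, at 391.6 CPM (nearest 243.7). Among control males, Spcs2 reached 872.1 CPM in library 6 (nearest 685.9) and Ssr3 reached 416.8 CPM in library 1 (nearest 284.3).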

How the results depend on the processing

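In females the count of ER genes called higher was 2, and it was 6 with no filter, 4 with DESeq2, and 0 without batch 2, without batch 3, without female controls 5 and 6, or with the compared groups alone. The cause was not tested. The last 4 settings also had fewer libraries. Without batch 2, Hsp90b1 had 0.57 (adjusted p = 0.149) and Pdia6 0.58 (adjusted p = 0.116). With the compared groups alone they had 0.53 (adjusted p = 0.111) and 0.51 (adjusted p = 0.106, edgeR). Of 36 alternatives, 29 called Hsp90b1 and 30 Pdia6, and both log2 fold changes were positive in each. These counts include every setting that left out 1 male library, which keeps all female libraries. They are thus no measure of how firm the calls are. Neither gene was called when control female 5 or control female 6 alone was left out. The genes added were Calr, Manf, Creld2 and Ssr1 with no filter, and Manf and Derl3 with DESeq2. Syvn1 was called lower, 1 gene against 0, with no filter and without batch 1. In males, where none was called, 2 were called higher with no filter (Xbp1 and Pdia5). Averaged over sexes, 0 were called, against 3 with no filter, 3 with limma-voom and 2 without batch 1. With no filter, the difference between the sexes had 1 gene called higher and 2 lower, against 0, and each sex comparison had 1 called lower, against 0. Leaving out each library in turn gave 0 to 3 genes higher in females and 0 to 1 in the average, and 0 in the other directions and comparisons. Whether replicate numbers pair libraries was not settled. Same-numbered libraries share a batch. Before batch was removed, 4 of 6 such pairs correlated over 0.1 for diet in females and 5 of 6 for diet in males. For sex it was 5 of 6 in control pups and 3 of 6 in Western-diet pups. After removal of batch, at most 1 of 6 did, and 0 of 6 correlated best with their own number in each comparison. Removing batch means itself lowers correlations within a batch, so the later counts cannot exclude a pairing. The replicate block left 2 genes called higher in females (Hsp90b1 0.58, Pdia6 0.55) and 0 elsewhere. Leaving out female controls 5 and 6, or a prior count of 0.5, left 6 genes correlated with Hspa5, and removing group and batch means again in each permutation left 4. Derl3, at 26 to 138 counts per library, has the least depth of the 32.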
